A study of Mus musculus with 6 samples.

Results

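Fibronectin, the thrombospondins and the matricellular proteins are secreted molecules of the extracellular matrix, and 10 of their genes were examined in mouse mesenteric arteries with and without beta1 integrin in smooth muscle. The genes were Fn1, Thbs1, Thbs2, Thbs3, Thbs4, Tnc, Postn, Sparc, Spp1 and Edil3, and every probe set whose only gene symbol was one of these was taken. A probe set is the group of short array probes that together report on a transcript. The rule found 21 of the 45037 probe sets, belonging to 9 genes. Of these, 15 reached the filter on low values (a mean log2 value of 6.10) and 6 did not, and each of the 9 genes was among the 11378 genes tested. Spp1, the gene of osteopontin, was not analysed here.

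Fibronectin is assembled by cells into fibrils and is bound mainly by integrins, above all by the pair of alpha5 and beta1 subunits. Matricellular proteins are matrix proteins that act more on cell behaviour than on mechanical strength. They bind integrins, growth factors, proteases and other matrix molecules, and in the artery wall many of them are best known for their expression in development and after injury.

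Total RNA came from mesenteric arteries, the small arteries that feed the gut, with 1 Affymetrix array for each of 6 mice. The 3 controls (animals 30, 74 and 75) carried loxP-flanked beta1 integrin alleles and no Cre recombinase. The 3 knockouts (72, 73 and 86) carried the same floxed alleles and a Cre driven by sm22alpha, the promoter of the smooth muscle gene Tagln. Both groups had a mixed background that includes FVB, SVJ129 and C57BL/6, and both received 1 mg of tamoxifen a day in 14 doses from 5 weeks of age and were studied at 7 weeks. No array comes from a mouse with Cre and unfloxed alleles, so the presence of Cre and the loss of the integrin cannot be told apart. Whole arteries were measured, in which fewer cells of a type and less RNA per cell cannot be told apart.

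Levels are given as log2(intensity + 1) after quantile normalization, and differences are knockout minus control on this scale. A level says nothing about 1 gene against another, since probes differ in brightness. The deposited median intensity per array lay between 62.75 and 72.6. Over all genes tested, Pearson correlations between arrays were 0.932 to 0.963 among controls, 0.949 to 0.971 among knockouts and 0.883 to 0.942 between the groups. Knockout 86 is labelled female and the other 5 mice male. Itgb1, the targeted gene, stood at 11.80, 11.04 and 11.20 in the controls and at 10.51, 10.56 and 10.76 in the knockouts. The knockout level was 60.1% of that in the controls (95% confidence interval 42.1 to 85.8, limma adjusted p = 0.129, exact permutation p = 0.1, 2-sided, the smallest that 3 against 3 arrays allow).

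Fn1, Thbs1 and Tnc rose in the knockout arteries, and Edil3 fell. In limma's test, with Benjamini-Hochberg adjustment over all genes tested, these 4 of the 9 genes had an adjusted p under 0.05, against 2.63% of all genes. By direction, 3 rose against 1.93% of all genes and 1 fell against 0.694%. Of the 9 genes, 8 were higher in the knockout mean and 1 was lower, with a median difference of 0.67 against -0.05 over all genes. In 8 of the 9 the knockout arrays did not overlap the control arrays, a pattern shown by 28.1% of all genes tested. The 9 genes were chosen with earlier results of these data known, so these shares describe them and test nothing about the group.

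**Figure D1:**
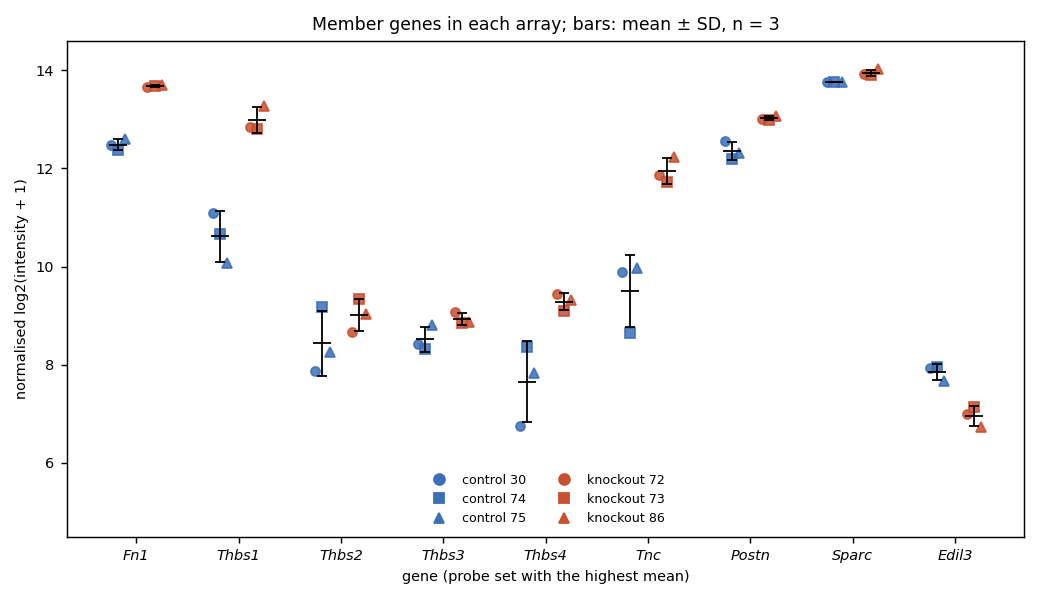
Normalised log2(intensity + 1) of the 9 genes in each of the 6 arrays, control in blue and knockout in orange, with the mean ± SD (n = 3) as black bars. The groups are apart in 8 genes, with Fn1, Thbs1 and Tnc higher in the knockout and Edil3 lower, and they overlap in Thbs2; heights of different genes are not comparable.

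Fn1 encodes fibronectin. The deposited intensities of its brightest probe set were 5527, 5524 and 5950 in the 3 controls and 13683, 12337 and 14791 in the 3 knockouts. On the log2 scale these became 12.47, 12.37 and 12.60 in the controls and 13.65, 13.67 and 13.70 in the knockouts. The lowest knockout array thus lay above the highest control array, and the 3 knockout arrays lay within a narrow band. The difference was 1.19 (SE 0.12), or 2.28-fold (95% confidence interval 1.87 to 2.79, limma adjusted p = 0.00612). The highest value on any normalised array was 14.10, so this probe set lay close to the top of the scale in the knockouts.

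The second Fn1 probe set was dimmer and differed by more. It stood at 9.26, 8.50 and 8.58 in the controls and at 11.00, 10.52 and 10.96 in the knockouts, again with no overlap. Its difference was 2.05 (SE 0.25), or 4.14-fold (95% confidence interval 2.74 to 6.24). Of 22519 probe sets tested singly, 1.38% passed, with 1.11% of all those tested higher in the knockout and past the threshold. Both Fn1 probe sets were among these (limma adjusted p = 0.0122 and 0.0185). The parts of the transcript that these probe sets cover, and with them any alternatively spliced exon, are not given in the sources used here.

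Fn1 kept its call in 5 of the 6 fits that left out 1 array. Without knockout 72 its adjusted p was 0.061, with a difference of 1.19. Without knockout 86, the female, the difference was 1.17 (limma adjusted p = 0.0449).

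Thbs1 encodes thrombospondin-1, which is stored in platelets, inhibits angiogenesis through CD36 and can activate latent TGF-beta. Its brightest probe set had deposited intensities of 2137, 1658 and 1050 in the controls and of 7497, 6860 and 10745 in the knockouts. The normalised levels were 11.10, 10.66 and 10.08 in the controls and 12.85, 12.81 and 13.28 in the knockouts. Every knockout array exceeded every control array, and the controls spread more widely (SD 0.51) than the knockouts (SD 0.26). The difference was 2.37 (SE 0.27), or 5.15-fold (95% confidence interval 3.28 to 8.10, limma adjusted p = 0.0102).

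The other Thbs1 probe set differed by 3.09 (SE 0.33), or 8.54-fold (95% confidence interval 4.93 to 14.8). Its levels were 8.84, 8.23 and 7.66 in the controls and 11.11, 11.12 and 11.78 in the knockouts. Both probe sets ranked the controls in the same order, with control 30 highest and control 75 lowest, and both placed knockout 86 on top. Both passed among the single probe sets (limma adjusted p = 0.0123 and 0.0168). A further probe set that lists Thbs1 together with another gene was left out by the rule. The gene's call was lost without knockout 72 (adjusted p = 0.0657) and without knockout 86 (adjusted p = 0.0566), where the difference was 2.20.

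The other thrombospondins did not pass. Thrombospondin-2 resembles thrombospondin-1 in domain structure, whereas thrombospondins 3 and 4 belong to the subgroup that forms pentamers. Thbs4 is known from tendon, muscle and the stressed heart.

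Thbs4 had levels of 6.75, 8.37 and 7.84 in the controls and of 9.44, 9.09 and 9.32 in the knockouts. The groups did not overlap, and the controls varied far more (SD 0.83) than the knockouts (SD 0.18). The difference was 1.63 (SE 0.39), or 3.10-fold (95% confidence interval 1.64 to 5.86), and did not pass (limma adjusted p = 0.0819). It passed without control 74, the highest control (1.98, limma adjusted p = 0.0479), and in none of the other 5 fits of 5 arrays. With array weights it also passed (1.74, limma adjusted p = 0.0149).

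Thbs3 stood at 8.43, 8.32 and 8.81 in the controls and at 9.08, 8.86 and 8.87 in the knockouts. Its groups were separated by the small gap between control 75 and knockout 73. The difference was 0.42 (SE 0.17, 95% confidence interval 0.02 to 0.81, limma adjusted p = 0.216). It passed in none of the 6 fits of 5 arrays.

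Thbs2 was the gene whose groups overlapped. Its brightest probe set stood at 7.87, 9.17 and 8.26 in the controls and at 8.67, 9.34 and 9.03 in the knockouts. Control 74 was higher than knockouts 72 and 86 there. The difference was 0.58 (95% confidence interval -0.24 to 1.40, limma adjusted p = 0.376). It was 0.30 without control 30 and 0.94 without control 74, where the groups no longer overlapped, and it passed in neither fit. The other 2 probe sets stood at -0.04 (95% confidence interval -0.95 to 0.87) and 0.14 (-0.64 to 0.92), the latter with the suffix x, which marks probes that may match similar sequences. In the controls alone the probe set at -0.04 was the brighter, with a mean of 8.50 against 8.43 for the one used. The choice of probe set thus bears on the direction of Thbs2. In all 3, control 74 was the highest control and control 30 the lowest.

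The controls were thus ordered differently by different thrombospondins. Control 30 was the highest control for Thbs1 and the lowest for Thbs2 and Thbs4, and control 74 was the highest for Thbs2 and Thbs4.

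**Figure D2:**
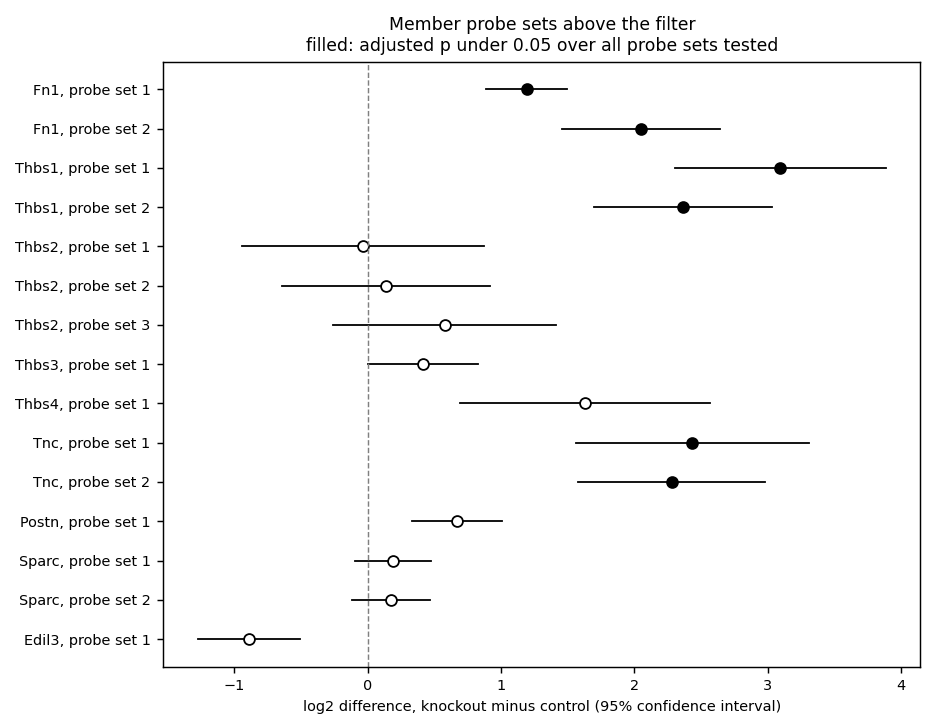
Log2 difference, knockout minus control, of the 15 member probe sets above the filter on low values, with 95% confidence intervals from limma; filled circles have an adjusted p under 0.05 over all probe sets tested. Both probe sets of Fn1, Thbs1 and Tnc are filled and lie above 0, and the second of Tnc was tested through its knockout signal. The 3 of Thbs2 lie at -0.04, 0.14 and 0.58 with intervals that span 0. The Edil3 probe set lies below 0 without passing in this fit.

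Tnc encodes tenascin-C, a large hexameric glycoprotein that interferes with cell adhesion to fibronectin and is known from remodelling vessels. Its brightest probe set had deposited intensities of 936, 394 and 976 in the controls and of 3674, 3239 and 5176 in the knockouts. The levels were 9.89, 8.65 and 9.97 in the controls and 11.87, 11.72 and 12.23 in the knockouts. All 3 knockouts were well above the controls, among which control 74 was the low one. The difference was 2.44 (SE 0.36), or 5.41-fold (95% confidence interval 2.99 to 9.80, limma adjusted p = 0.0229).

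The second Tnc probe set differed by 2.28 (SE 0.29), or 4.86-fold. It stood at 6.33, 5.76 and 5.85 in the controls and at 7.69, 8.37 and 8.73 in the knockouts, so in the controls it averaged less than the filter level of 6.10 and it was tested through its knockout signal. Both passed among the single probe sets (limma adjusted p = 0.0358 and 0.0231). The gene's call was lost without control 75 (adjusted p = 0.0574), knockout 72 (0.101), knockout 73 (0.0606) or knockout 86 (0.101), with differences from 2.00 to 2.67 over all 6 fits of 5 arrays.

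Upstream sequence was held in the RefSeq-derived promoter table of GRCm38.p6 for 7 of the 10 genes, among them Tnc, the one called gene with a window there. The 250 bases before the annotated start were searched on both strands for short motifs. The letters were GCGNGGGCG for EGR factors, TGANTCA for AP-1, GGAATG for TEAD factors and, for the TATA box itself, TATAAA, and the CArG box of serum response factor was searched as well. These motifs were chosen after the sequences had been seen. Of 32851 windows of this length in the table, 4.7% held the EGR letters, 6.75% the AP-1 letters, 12.6% the TEAD letters, 12.4% the TATA letters and 1.47% a CArG box. Below are the window of Tnc (chr4:64047016-64047265, minus strand), that of Thbs4 (chr13:92794819-92795068, minus strand), as the uncalled gene with the largest difference, and 1 of the 2 windows of Postn (chr3:54360857-54361106, plus strand), as the gene nearest to the threshold. Capitals mark the matched letters.
Tnc: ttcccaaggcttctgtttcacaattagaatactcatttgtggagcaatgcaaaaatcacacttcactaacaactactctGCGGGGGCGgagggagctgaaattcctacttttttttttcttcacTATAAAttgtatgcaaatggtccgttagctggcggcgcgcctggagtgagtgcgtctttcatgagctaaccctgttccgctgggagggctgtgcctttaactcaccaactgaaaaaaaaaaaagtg
Thbs4: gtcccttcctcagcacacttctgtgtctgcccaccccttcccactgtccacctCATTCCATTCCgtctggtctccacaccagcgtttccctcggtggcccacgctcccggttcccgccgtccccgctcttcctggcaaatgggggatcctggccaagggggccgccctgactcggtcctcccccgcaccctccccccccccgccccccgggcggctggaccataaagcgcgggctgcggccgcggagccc
Postn: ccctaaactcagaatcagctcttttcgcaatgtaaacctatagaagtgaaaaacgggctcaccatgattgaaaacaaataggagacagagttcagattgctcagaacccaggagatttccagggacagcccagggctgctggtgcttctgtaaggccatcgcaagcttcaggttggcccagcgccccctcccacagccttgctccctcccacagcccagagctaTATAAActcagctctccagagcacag

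The Tnc window held 1 match to the EGR letters, which begins 171 bases before the start, and 1 to the TATA letters, which begins 126 bases before it. A second Tnc start in the table overlaps this window and holds the same matches. The Thbs4 window held 2 overlapping matches to the TEAD letters on the opposite strand, read there as CATTCC. The Postn window held the TATA letters 26 bases before the start. The other Postn start in the table, with the window chr3:54359017-54359266, held none of the motifs. Among the windows not shown, those of Thbs3 and Sparc and the second of Spp1 held none either. The Thbs2 window and the first of Spp1 held the TATA letters. No window of these genes held the AP-1 letters or a CArG box. A match describes letters and is not a binding site, and the motifs were not tested against the expression differences.

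Postn encodes periostin, which fibroblasts and activated smooth muscle secrete and which binds fibronectin, tenascin-C and collagen. Its single probe set stood at 12.55, 12.20 and 12.32 in the controls and at 13.00, 12.99 and 13.07 in the knockouts. The knockouts were nearly equal and all above control 30, the highest control. The difference was 0.67 (SE 0.14), or 1.59-fold (95% confidence interval 1.27 to 1.99), and lay just outside the threshold (limma adjusted p = 0.0561). It passed with a trended robust prior (adjusted p = 0.0305) or array weights (adjusted p = 0.0156), and in none of the 6 fits of 5 arrays.

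Sparc encodes osteonectin, a collagen-binding protein of matrix assembly. Its brightest probe set stood at 13.76, 13.75 and 13.76 in the controls and at 13.92, 13.90 and 14.02 in the knockouts. The knockouts were all slightly higher. The difference was 0.19 (SE 0.11, 95% confidence interval -0.08 to 0.46, limma adjusted p = 0.371). The second probe set differed by 0.17 (95% confidence interval -0.12 to 0.47). Both lay near the highest value of the normalised arrays, 14.10, and whether this limited their rise was not tested. With no normalization between arrays the difference of Sparc was 0.33 (limma adjusted p = 0.245). The third Sparc probe set was below the filter at 5.77 to 6.40, with overlapping groups and a difference of -0.07.

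Edil3 encodes a secreted protein of endothelial and developing vascular cells that carries an RGD sequence and binds the integrin alpha v beta3. It was the member that fell. Its brightest probe set had deposited intensities of 241, 238 and 197 in the controls and of 135, 140 and 108 in the knockouts. The levels were 7.93, 7.95 and 7.67 in the controls and 7.00, 7.13 and 6.74 in the knockouts, so all knockouts were below all controls. The difference was -0.89 on the log2 scale (SE 0.16), so that the knockouts held 53.9% of the control signal (41.7 to 69.6 as 95% confidence interval, limma adjusted p = 0.0374).

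The call of Edil3 was lost in all 6 fits of 5 arrays (adjusted p from 0.0711 to 0.145) and with no filter on low values (adjusted p = 0.0937), and the same probe set did not pass among the single probe sets (adjusted p = 0.0587). The other 5 Edil3 probe sets lay below the filter, with levels from 1.75 to 5.42. Their groups overlapped in all 5, and their differences ran from -0.94 to 0.98.

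**Figure D3:**
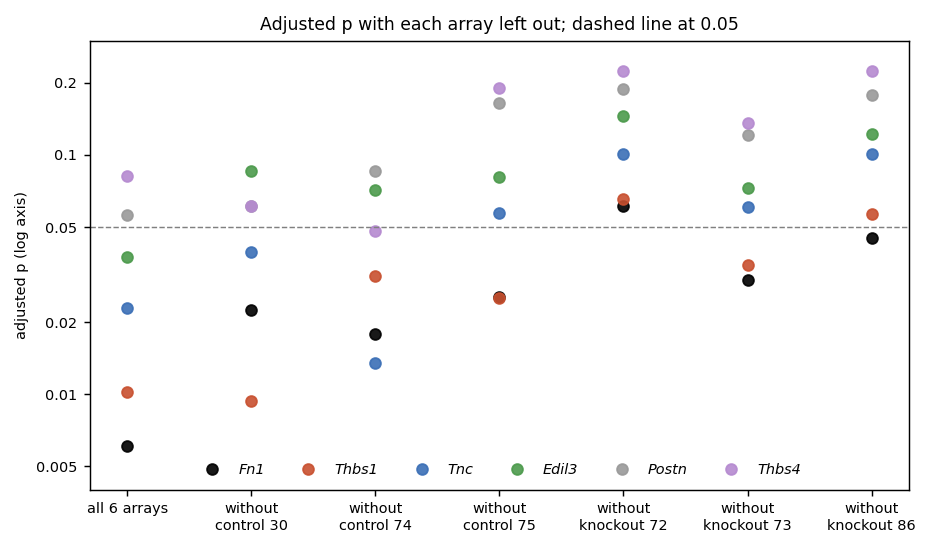
Adjusted p of Fn1, Thbs1, Tnc, Edil3, Postn and Thbs4 from limma with all 6 arrays and with each array left out, on a log axis, with a dashed line at 0.05. Fn1 rises above the line only without knockout 72 and Thbs1 only without knockouts 72 or 86, while Edil3 lies above it in all 6 fits of 5 arrays.

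The relatives of these proteins were also read from lists. Among the SPARC relatives, 0 of 6 rose and 1 fell, against 1.93% and 0.694% of all genes. Spock2, a proteoglycan of this family, fell by 1.08 on the log2 scale (SE 0.17, limma adjusted p = 0.0283), from 7.50, 7.69 and 7.36 in the controls to 6.71, 6.25 and 6.36 in the knockouts, and lost its call in all 6 fits of 5 arrays. Fstl1, a secreted relative, stood at 0.43 (adjusted p = 0.126) and Smoc1 at 0.51 (adjusted p = 0.24).

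Among the 4 proteins of mineralised tissue that belong to the osteopontin family, 1 passed the filter. Dmp1, a matrix protein of bone, rose by 4.36 (SE 0.28, limma adjusted p = 0.0015). It stood at 5.48, 4.97 and 5.46 in the controls, below the filter level, and at 9.48, 9.29 and 10.24 in the knockouts, so it was tested because of its knockout signal. The related Ibsp, Mepe and Dspp lay below the filter.

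The closest relatives of periostin and of Edil3 differed little. Tgfbi, the paralog of Postn, stood at -0.06 (SE 0.24, 95% confidence interval -0.62 to 0.50), and Mfge8, the paralog of Edil3, at 0.09 (SE 0.20, 95% confidence interval -0.39 to 0.56). The tenascin Tnxb stood at -0.76 (SE 0.54, limma adjusted p = 0.455), with values from -1.31 without control 30 to -0.22 without control 75, and Comp, the fifth thrombospondin, at -0.15 (SE 0.32). Whether these differ from the differences of Tnc and the called thrombospondin was not tested.

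The CCN proteins are another matricellular family. Of 6 genes, 0 passed in limma and 2 had an unadjusted p under 0.05, which 21.4% of all genes tested reached and which is the share to read such counts against in every list here. Of the 6, 3 were higher and 3 lower (median 0.05). Ccn4 stood at 1.23 (SE 0.36, adjusted p = 0.125), with controls at 8.85, 7.84 and 8.95 and knockouts at 9.81, 9.30 and 10.23. Ccn2, also known as connective tissue growth factor, stood at 0.52 (adjusted p = 0.183) and Ccn3 at -0.42 (adjusted p = 0.259).

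The integrin subunits that bind these ligands held 10 tested genes, of which 0 passed in limma and 4 had an unadjusted p under 0.05. Itga5, the partner of beta1 in the fibronectin receptor, stood at 0.75 (SE 0.16, adjusted p = 0.0678), with controls from 8.90 to 9.35 and knockouts from 9.66 to 9.95. Itgb5, which pairs with alpha v, stood at 0.47 (adjusted p = 0.129). Over the 10 genes, 7 were higher and 3 lower (median 0.35). The deleted gene Itgb1 is on this list and is 1 of the 4 and 1 of the 3 lower genes. Without control 30 a different Itga5 probe set was the brightest and the difference was 1.48, and the mean of its probe sets gave 1.30.

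Of 12 receptors outside the integrins, 1 rose, against 1.93% of all genes. Cd44, a receptor for hyaluronan and osteopontin, rose by 1.80 (SE 0.25, 3.47-fold, limma adjusted p = 0.0185). It stood at 10.65, 9.74 and 10.24 in the controls and at 11.83, 11.92 and 12.27 in the knockouts, and lost its call without control 75 or any 1 of the knockouts (highest adjusted p 0.0808). Calr, the chaperone calreticulin, which on the cell surface takes part in thrombospondin-1 signalling, stood at 0.46 (adjusted p = 0.0964) and the urokinase receptor Plaur at 0.73 (adjusted p = 0.125). The thrombospondin receptors Cd36 and Cd47, named after their values were seen, stood at -0.47 (adjusted p = 0.647) and 0.10 (adjusted p = 0.704).

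Among 13 genes for proteins that bind fibronectin or share its fibrils, 4 rose, against 1.93% of all genes, and 0 fell. Of the 13, 9 were higher and 4 lower (median 0.45). In limma 8 had an unadjusted p under 0.05, against 21.4% of all genes. Higher with no overlap were 8, against 12.9% of all genes. The list was chosen with earlier results of these data known, so these shares describe it and test nothing about it. Ltbp2, of the latent TGF-beta binding protein family, stood at 6.72, 7.67 and 7.46 in the controls and at 10.44, 10.51 and 10.13 in the knockouts. It rose by 3.08 (SE 0.26, limma adjusted p = 0.00303) and was called in all 6 fits of 5 arrays. Vcan, the proteoglycan versican, rose by 1.33 (SE 0.21, adjusted p = 0.0285) and Col1a1, a chain of collagen I, by 1.23 (SE 0.20, adjusted p = 0.029). Tnfaip6, a hyaluronan-binding protein, rose by 0.84 (SE 0.16, adjusted p = 0.0458) and was the last of the 4. Without knockout 72, knockout 73, knockout 86 or control 75, each of Vcan, Col1a1 and Tnfaip6 lost its call, Vcan also without control 74 and Tnfaip6 also without control 30 (highest adjusted p 0.129, 0.11 and 0.176).

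The gene whose profile over the 6 arrays was most like that of Fn1 was Col5a1, a chain of the fibril-forming collagen V. After each gene was centred on its own mean, their log2 values differed by a root mean square of 0.0813. Next came Ppic and Tcf19 (both 0.113), B4galt5 (0.118) and Gnb4 (0.126). For Thbs1 the nearest were Cdh11, a cadherin of mesenchymal cells, at 0.222, and the cell division genes Plk1 (0.288), Diaph3 (0.316), Pclaf (0.324) and Smc2 (0.329). Plk1 and Diaph3 averaged 5.45 and 5.85 in the controls, below the filter level, so they entered this search through their knockout signal. Cdh11, Pclaf and Smc2 averaged 8.40, 6.70 and 7.87 in the controls, above the filter level. Among the members themselves, the closest pair was Sparc and Thbs3, at 0.206, and Fn1 lay nearest to Postn, at 0.283. These distances describe 6 arrays in 2 groups and carry no test. The profiles were not scaled, so genes that differ little between the groups lie close to each other, as Sparc (0.19) and Thbs3 (0.42) do.

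The labelled tissue was checked against marker lists. Smooth muscle markers were bright in every array, with a list mean from 12.40 to 12.96 in the controls and from 12.15 to 12.46 in the knockouts. All 9 smooth muscle markers were lower in the knockout mean, 0 passed in limma and 3 had an unadjusted p under 0.05, against 21.4% of all genes. Lower with no overlap were 4, namely Lmod1, Synpo2, Myh11 and Tagln, against 15.1% of all genes. Lmod1 had the largest difference of the list, at -1.20 (limma adjusted p = 0.0561). Endothelial markers had list means of 10.71 to 11.11 in the controls and 10.13 to 10.90 in the knockouts (0 of 9 passed, 4 with an unadjusted p under 0.05). Of the 9, 8 were lower in the knockout mean and 1 higher (median -0.56), and 4 were lower with no overlap, namely Tek, Pecam1, Cldn5 and Vwf, against 15.1% of all genes. Edil3, a gene of endothelial cells, fell in the same arrays, and the part of endothelial cells in its fall was not tested. The 9 mesothelial markers all lay below the filter, at list means of 4.32 to 4.97 in both groups.

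Macrophage markers had higher means in the knockouts, and none passed the test. Macrophages can make fibronectin and thrombospondin-1, so the whole list is given beside these genes. All 13 markers tested were higher in the knockout mean and 8 of them did not overlap, against 12.9% of all genes that were higher with no overlap. In limma 0 passed and 10 had an unadjusted p under 0.05, against 21.4% of all genes. The 13 include Fcgr1, at 5.25 in the controls and 7.38 in the knockouts, which was tested through its knockout signal. The list mean was 7.40, 8.30 and 8.08 in the controls and 9.13, 10.50 and 8.74 in the knockouts. The summed intensity ran from 3816 to 6981 in the controls and from 9754 to 34419 in the knockouts, with no marker at 0 and Itgam, the lowest, at a mean of 6.09. Knockout 73 was the highest, and knockouts 72 and 86 also lay above every control. The part of macrophages in the rise of Fn1, Thbs1 and Tnc was not tested.

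Platelet genes, of interest because platelets store thrombospondin-1, overlapped between the groups. The list mean was 6.74 to 7.37 in the controls and 6.73 to 7.15 in the knockouts. In limma 0 of 6 passed and 1 had an unadjusted p under 0.05, Gp1bb at 0.77. Of the 6, 2 were higher in the knockout mean and 4 lower (median -0.05), with Ppbp at -1.04 (limma adjusted p = 0.359). Adventitial fibroblast markers had means of 10.12 to 10.68 in the controls and 10.62 to 10.75 in the knockouts. Here 0 of 8 passed and 2 had an unadjusted p under 0.05, Lum at 0.83 and Pdgfra at 0.75. With the mean of its probe sets Pdgfra stood at 0.46, with overlapping groups. Of the 8, 6 were higher in the knockout mean and 2 lower (median 0.19), the lower being Clec3b at -0.24 and Dpt at -0.05. The part of adventitial fibroblasts in the rise of Fn1 and Tnc was not tested. Schwann cell markers were lower, at 9.96 to 10.55 against 10.86 to 11.25 (0 of 4 passed, 4 with an unadjusted p under 0.05). Adipocyte and lymphocyte lists overlapped between the groups, with 0 of 5 and 0 of 1 tested genes past the threshold and 0 of either at an unadjusted p under 0.05.

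**Figure D4:**
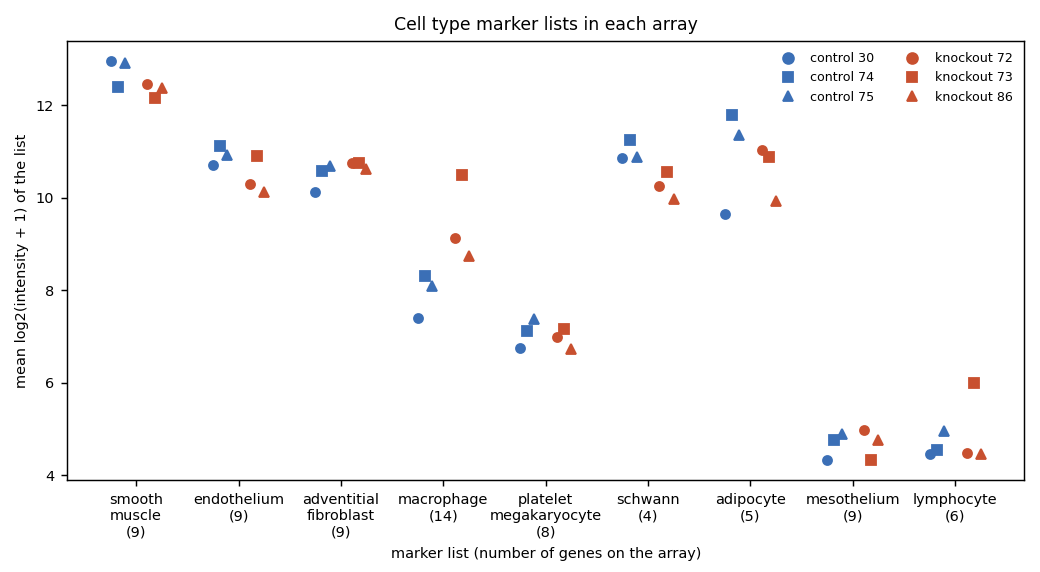
Mean log2(intensity + 1) of 9 cell type marker lists in each of the 6 arrays, control in blue and knockout in orange, with the number of genes on the array in brackets. The macrophage list is higher in all 3 knockouts, most of all in knockout 73 at 10.50, and the Schwann list is lower in all 3. The mean of the smooth muscle list stays above 12 in every array, although all 9 of its markers are lower in the knockout mean.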

How the data were processed

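The authors deposited 1 linear intensity per probe set and array, for 45037 probe sets on 6 Affymetrix arrays of biotin-labelled RNA, per the labels. The method of probe summary and array scaling: not given in the sources used here. No 2 arrays held identical values. In the platform annotation of 2016, 34945 probe sets have 1 gene symbol, 932 several and 9160 none, and 34741 identifiers matched a reference table of GRCm38.p6, with 0 symbols changed.

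The scale is log2(intensity + 1), followed by quantile normalization. Probe sets with a mean below the median of all probe sets (log2 value 6.10) were left out. Each gene was represented by its brightest probe set over all 6 arrays, knockouts included, which gave 11378 genes. Groups were compared with limma 3.58.1 in R 4.3.3 (lmFit, eBayes, 2-sided, adjusted p under 0.05 over all genes). Only the limma step was tested on simulated data, drawn independently for each gene. The normalization, the filter and effects shared between genes were not part of that test. The log2 scale with a pseudocount of 1 understates changes of dim genes, and 3 arrays per group limit the precision. P-values set the difference between the groups against the spread between these mice, which limma moderates over all genes.

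The rule for named genes covers all members, Itgb1, Tagln and the 5 profiles nearest to Fn1 and to Thbs1. It also covers up to 3 genes per list with the smallest p and the list genes past the threshold. For the cell type lists not every gene under the rule is printed, and others such as Vwf, Cd36 and Cd47 were named outside it. Predicted transcripts were skipped among the profiles. The members and lists were chosen with earlier results of these data known. Alternatives were other filters, probe set means, other normalizations, a pseudocount of 16, other variance models and leaving out each array.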

Additional observations from a re-analysis of the deposited data

How the results depend on the processing

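No paired analysis was possible because the animal numbers in the labels are not shared between the groups. The 4 called members kept their direction under every alternative in which they were tested, and Edil3 was not tested with a filter at the 70th percentile. The count of called members was 4 and fell to 2 with no filter, where 18193 genes were tested, and lay between 0 and 4 with 1 array left out. It was 0 without knockout 72, 1 without knockout 86, 2 without either control 75 or knockout 73, and 3 without control 30. It was 4 without control 74, where Thbs4 passed and Edil3 did not. It was 5 with a trended robust prior (Postn added) and 6 with array weights (Postn and Thbs4 added). Called member probe sets numbered 6, among them the second of Tnc, which was tested through its knockout signal. They numbered 3 with no filter, 7 with a trended robust prior, 9 with array weights, and 0 to 6 with 1 array left out. Over all genes, 299 passed, 220 higher and 79 lower. The count was 174 with no filter (157 higher, 17 lower), 166 with the 70th percentile filter (123 and 43) and 1197 with array weights (586 and 611, so that most were lower), and 47 to 279 with 1 array left out (lowest for knockouts 72 and 86, at 47 and 58, then 99 for control 75, 115 for knockout 73 and 189 for control 30). Median centring gave 195 higher and 115 lower, with a median over all genes of -0.10. Itgb1 lay between -0.88 and -0.51 over the fits of 5 arrays and passed with array weights (-0.77, adjusted p = 0.0329). Among the genes named by the rule, 5 changed sign, none of them called in any fit. Comp was 0.015 and Mfge8 -0.0024 with array weights. Over the fits of 5 arrays Comp lay between -0.50 and 0.086, Mfge8 between -0.12 and 0.20, Tgfbi between -0.30 and 0.12, and the adipocyte genes Cidec and Lep between -1.36 and 0.24 and between -1.17 and 0.13. A filter at the median of probe sets with 1 gene symbol, added after seeing the data, gave 258 genes and the same 4 members. The cause of these changes was not tested.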
